A study of Mus musculus with 7 samples.

Results

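Germline and testis genes that most somatic cells keep silent were followed in mouse embryonic fibroblasts with 7 Affymetrix arrays. The 9 genes were Tex19.1, Rhox5, Piwil2, Tex101, Rpl39l, Mael, Dazl, Sycp3 and Dppa3. They were picked as germline or testis genes after earlier results of these arrays were known, among them the difference between genotypes and the response of Tex101 to TSA. Of these, 8 were among the 12394 named genes with a probe set, Dazl had 2 probe sets, and none was annotated to Mael in the table used here, so Mael has no values. The series concerns the part of DNA methylation in stable gene repression. Of the arrays, 3 came from p53-/- fibroblasts, called p53-null here, untreated or after 24 h or 48 h of TSA (trichostatin A, an inhibitor of histone deacetylases). The other 4 came from p53-/- Dnmt1-/- fibroblasts, called p53-Dnmt1-null here, at the same times and again 2 weeks after TSA was removed. Every group thus lacked p53 and held 1 array, so no value has a replicate error. The labels name no line, clone, culture or animal, so effects of genotype and of the culture used cannot be told apart. The TSA dose and the exposure before removal are not stated in those labels.

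Dnmt1 copies the methylation of CpG dinucleotides onto the new DNA strand at each cell division. Many germline genes have promoters with a fair number of CpGs that are methylated in the early embryo and then stay silent in the body's cells, so they serve as reporters of lost methylation. Most of the genes here act at different steps of germ cell life. Tex19.1 and the piRNA genes Piwil2 and Mael hold retrotransposons in check, Rhox5 is an X-linked homeobox factor of the testis and epididymis, Dazl is an RNA-binding protein of germ cells, Sycp3 builds the synaptonemal complex of meiosis, Dppa3 protects methylation in the early embryo, Tex101 is a surface protein of germ cells, and Rpl39l is a testis form of a ribosomal protein.

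The arrays had been scaled alike, with median signals of all probe sets from 41.9 to 48.8. A probe set counted as measured where its signal passed 45.6, the median over all arrays, on at least 1 array. Differences are on the log2(signal + 11.4) scale, which damps the change of dim probe sets. The 10 fibroblast markers with a probe set all passed 45.6 on some array of each genotype. Twist1 did not on the p53-Dnmt1-null 24 h and after-removal arrays, at 44 and 34.4. The summed signal of the list was 29354.1 to 33700.9 over the p53-null arrays and 8655.9 to 15130.8 over the p53-Dnmt1-null arrays. Of 8 mesothelial or epithelial markers, 2 passed it on some p53-null array and 8 on some p53-Dnmt1-null array, with summed signals of 149.2 to 418.5 and 9681.0 to 16829.6. The p53-Dnmt1-null cells therefore differed from the label of a fibroblast in marker genes as well as in Dnmt1, and the part of this in the results below was not tested.

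Markers of germ cells themselves were dim everywhere. Of 7 such markers with a probe set, Ddx4, Dazl, Sycp1, Sycp3, Stra8, Dmc1 and Kit, 0 passed 45.6 on any array, and their summed signal was 33.2 to 43.0 in p53-null and 52.8 to 86.9 in p53-Dnmt1-null arrays. The germ cell helicase Ddx4 had signals of 10.5 at most. Of 8 pluripotency markers 2 passed 45.6 on some p53-null array, Sox2 at up to 60.2 and Fgf4 at up to 58.8, and 1 on some p53-Dnmt1-null array, Fgf4 at up to 60.9. Pou5f1 and Nanog, which define pluripotent cells, stayed at or under 10.4 and 15.6. The Sertoli cell list had a summed signal of 150.0 to 233.2 in p53-null and 543.6 to 928.1 in p53-Dnmt1-null arrays, of which Wt1, also a mesothelial marker, gave 427.6 to 650.4. Of these 8 markers 2 passed 45.6 on some p53-null array and 4 on some p53-Dnmt1-null array. Among them Gata4 had 26.6, 33.9 and 10.5 against 77.9, 88, 137.8 and 42.6. Sox9 had 59, 37.1 and 33.9 against 36.8, 20.4, 10.7 and 22.8, mostly the other way. Inha had 84, 56.9 and 60 against 66.7, 57.5, 56.7 and 22.3. Dhh had 29.4, 38.6 and 18 against 11.4, 70.6, 28.9 and 22.7. Amh, also on this list, stayed between 0.9 and 3.8 on all arrays.

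A group of 4 genes was on in p53-Dnmt1-null cells with or without TSA and dim in p53-null cells. In p53-null cells Tex19.1 gave 9.3, 2.4 and 12 at 0, 24 and 48 h of TSA. In p53-Dnmt1-null cells it had 757.2, 746.3 and 723.7, and 152.7 after TSA removal. All 4 of the latter arrays lay above all 3 of the former, and the after-removal array lay apart from the other p53-Dnmt1-null arrays. Rhox5 had 26.7, 20.5 and 22.4 in p53-null cells against 621.3, 611.1 and 668.6, with 295.0 after removal. It too was high on every p53-Dnmt1-null array and lowest there after removal.

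Piwil2, which encodes the piRNA-binding protein MILI, had 6.9, 3.9 and 8.0 in p53-null cells. The p53-Dnmt1-null arrays gave 141.3, 238.7 and 165.3, and 128.9 after removal. These signals were moderate, and the after-removal value stayed close to the untreated one. Rpl39l had 1.4, 2.0 and 6.0 in p53-null cells against 1457.9, 2132.3 and 1875.8, with 1633.4 after removal. The after-removal value of Rpl39l thus lay inside the range of the other p53-Dnmt1-null arrays. Its parent gene Rpl39, which codes for the ribosomal protein of most tissues, had 121.8, 94.0 and 78.3 against 126.3, 108.2 and 130.5, so the ranges of the genotypes overlapped for Rpl39 and were far apart for Rpl39l.

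**Figure D1:**
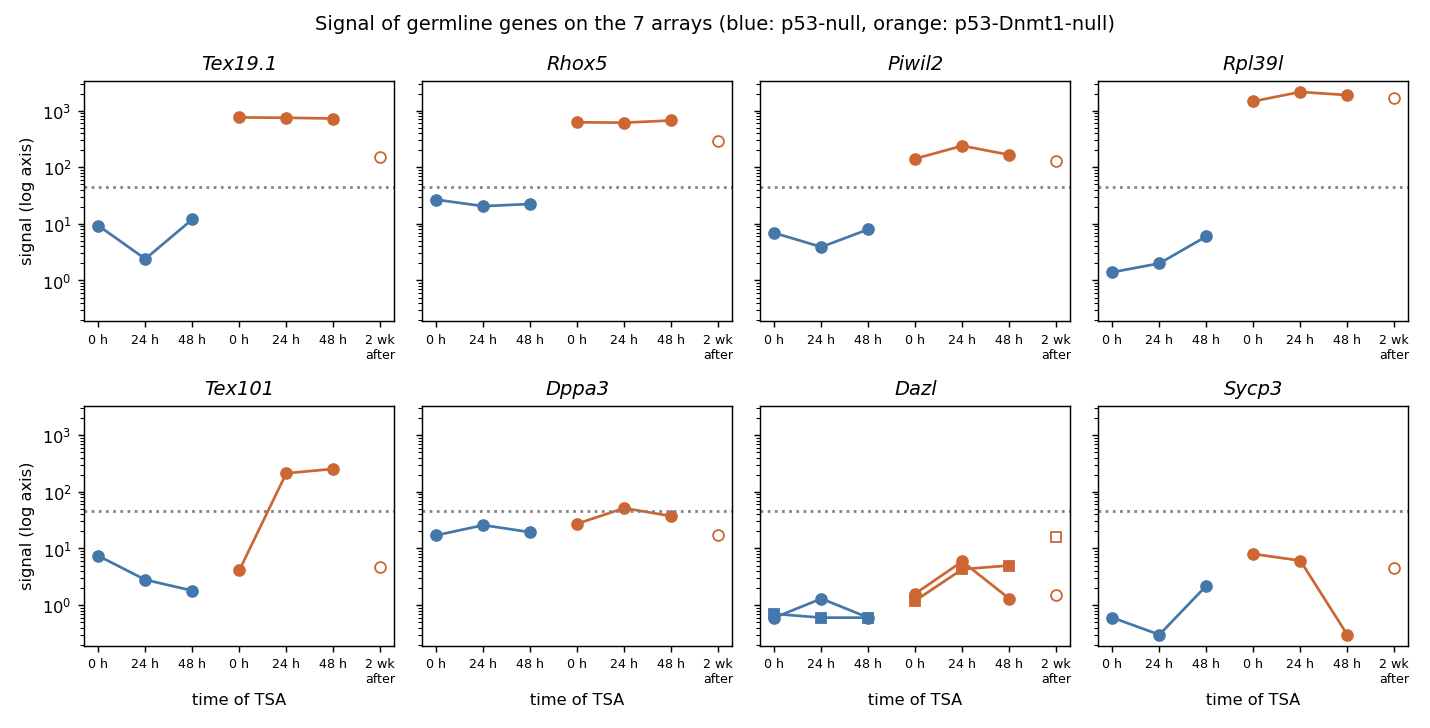
Signal of the 8 germline genes with a probe set on each array, on a log axis, against hours of TSA (0, 24 and 48 h) or 2 weeks after removal; blue is p53-null, orange p53-Dnmt1-null, open symbols the after-removal array, squares the second probe set of Dazl, and the dotted line the overall median of 45.6. Tex19.1, Rhox5, Piwil2 and Rpl39l lie above the line on all 4 p53-Dnmt1-null arrays, and Tex101 only on the TSA arrays at 212.8 and 253.8.

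As a description, since the genotype difference helped to choose the genes, it was 5.21, 5.78 and 4.97 log2 units for Tex19.1 at 0, 24 and 48 h. For Rhox5 it was 4.05, 4.29 and 4.33, for Piwil2 3.06, 4.03 and 3.19, and for Rpl39l 6.84, 7.32 and 6.76. Because the p53-null signals were dim, the size depended on the offset, and the untreated difference of Rpl39l ranged from 5.00 with an offset of 45.6 to 9.25 with an offset of 1. The direction was the same at each time and setting tried for these 4 genes. Across all 9390 features 5.11% were at least 2-fold higher without Dnmt1 at all 3 times, 1.65% at least 4-fold and 0.586% at least 8-fold, and nothing is read from the members' count of 4 against these shares. No member passed 45.6 on a p53-null array, where the highest signal was 26.7, for Rhox5. The 6 members that passed the filter did so through p53-Dnmt1-null arrays alone.

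Dazl, Sycp3 and Dppa3 were not switched on to a like degree. The Dazl probe sets had signals between 0.6 and 1.3 in p53-null cells. In p53-Dnmt1-null cells one gave 1.6, 5.9, 1.3 and, after removal, 1.5, and the other gave 1.2, 4.3, 5.0 and 16.0. The probe sets parted on the after-removal array, and none of their signals reached the array median. Sycp3 had 0.6, 0.3 and 2.2 in p53-null cells against 8.0, 6.1, 0.3 and 4.6, with overlapping ranges. Dppa3 had 17.1, 25.8 and 19.4 against 27.4, 51.6 and 37.2, with 17.2 after removal. Its only signal above 45.6 was at 24 h of TSA without Dnmt1, and its genotype differences of 0.45, 0.76 and 0.66 log2 units were under 2-fold at each time. At signals this dim, a gene at a low level and a silent gene cannot be told apart, since no detection calls were used.

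The promoters of Tex19.1, Rhox5, Rpl39l and Tex101, which had high signals on some arrays, and of Dazl and Sycp3, which had none, are shown so that their CpGs can be compared. Each is the 250 bases before the annotated start, 5′ to 3′ on the strand of the gene, from RefSeq on build GRCm38.p6, with CpGs in capitals. Tex19.1 is at chr11:121145893-121146142 on the plus strand, Rhox5 at chrX:37754358-37754607 on the plus strand, Rpl39l at chr16:10169978-10170227 on the plus strand, Tex101 at chr7:24672051-24672300 on the minus strand, Dazl at chr17:50293621-50293870 on the minus strand and Sycp3 at chr10:88459337-88459586 on the plus strand.
Tex19.1: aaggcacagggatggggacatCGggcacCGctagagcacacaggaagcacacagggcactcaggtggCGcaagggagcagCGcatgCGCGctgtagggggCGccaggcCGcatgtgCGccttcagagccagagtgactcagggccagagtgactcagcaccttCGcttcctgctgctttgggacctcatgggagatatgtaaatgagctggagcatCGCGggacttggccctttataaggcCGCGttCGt
Rhox5: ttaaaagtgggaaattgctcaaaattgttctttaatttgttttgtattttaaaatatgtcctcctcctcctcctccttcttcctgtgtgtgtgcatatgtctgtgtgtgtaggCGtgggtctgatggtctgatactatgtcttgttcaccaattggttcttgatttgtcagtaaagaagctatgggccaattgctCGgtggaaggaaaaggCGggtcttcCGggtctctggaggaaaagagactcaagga
Rpl39l: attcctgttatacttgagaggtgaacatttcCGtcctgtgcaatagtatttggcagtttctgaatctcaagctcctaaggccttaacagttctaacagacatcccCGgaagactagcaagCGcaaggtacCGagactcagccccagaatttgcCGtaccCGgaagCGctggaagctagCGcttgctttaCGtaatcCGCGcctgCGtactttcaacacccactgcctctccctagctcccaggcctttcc
Tex101: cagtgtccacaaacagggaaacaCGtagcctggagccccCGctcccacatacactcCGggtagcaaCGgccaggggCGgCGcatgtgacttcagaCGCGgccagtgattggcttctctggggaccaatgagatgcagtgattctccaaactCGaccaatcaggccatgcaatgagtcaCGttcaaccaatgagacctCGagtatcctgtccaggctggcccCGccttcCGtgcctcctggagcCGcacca
Dazl: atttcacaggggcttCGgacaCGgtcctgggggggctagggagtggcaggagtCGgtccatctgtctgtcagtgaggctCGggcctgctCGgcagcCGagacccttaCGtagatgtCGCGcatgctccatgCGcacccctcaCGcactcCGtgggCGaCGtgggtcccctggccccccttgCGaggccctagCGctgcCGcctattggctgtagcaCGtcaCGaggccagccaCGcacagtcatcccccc
Sycp3: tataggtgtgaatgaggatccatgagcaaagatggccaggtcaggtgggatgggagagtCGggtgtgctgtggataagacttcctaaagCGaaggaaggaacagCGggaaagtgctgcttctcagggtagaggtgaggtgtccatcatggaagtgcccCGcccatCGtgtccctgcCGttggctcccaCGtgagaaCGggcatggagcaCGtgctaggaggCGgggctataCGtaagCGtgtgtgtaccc

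Tex19.1 had 15 CpGs in this window, Rpl39l 12, Tex101 14, Dazl 20 and Sycp3 12, against a median of 6 over all promoters of the table. Rhox5 had 4 and lay at percentile 37.8 of all promoters by number of CpGs, while Dazl lay at percentile 82.0. Of these 6, the dim gene Dazl had the most CpGs, the dim gene Sycp3 as many as Rpl39l, and the high gene Rhox5 the fewest. The windows follow annotated starts, and where transcription starts in these cells was not measured. Promoter entries were matched for 7 of the 9 genes, Mael with 18 CpGs included. Tex19.2, the neighbour and sister gene of Tex19.1, had 2 CpGs in its window and was dim too. Its signals were 21.4, 22.1 and 25.8 on the p53-null arrays and 42.7, 45.6, 35.4 and 22.7 on the p53-Dnmt1-null arrays. That is a dim gene beside a bright one of the same family, on arrays of the same cells.

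On both strands, TCCCGC, the core of sites for E2F factors such as the germline repressor E2F6, was found in 3 of the 7 promoters, Tex19.1, Sycp3 and Mael. It starts 33 bases before the start of Tex19.1 and 147 before that of Sycp3, and is present in 16.9% of all promoters in windows of the same length. CACGTG, an E-box that MAX and MGA can bind, was found in Sycp3 and Mael and is present in 6.02% of promoters. The motifs do not overlap each other in these windows. TGACGTCA, the site of cAMP response factors such as the testis factor CREM, was in 0 of the 7 and in 1.55% of all promoters. DNA methylation itself was not measured in the data used here.

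**Figure D2:**
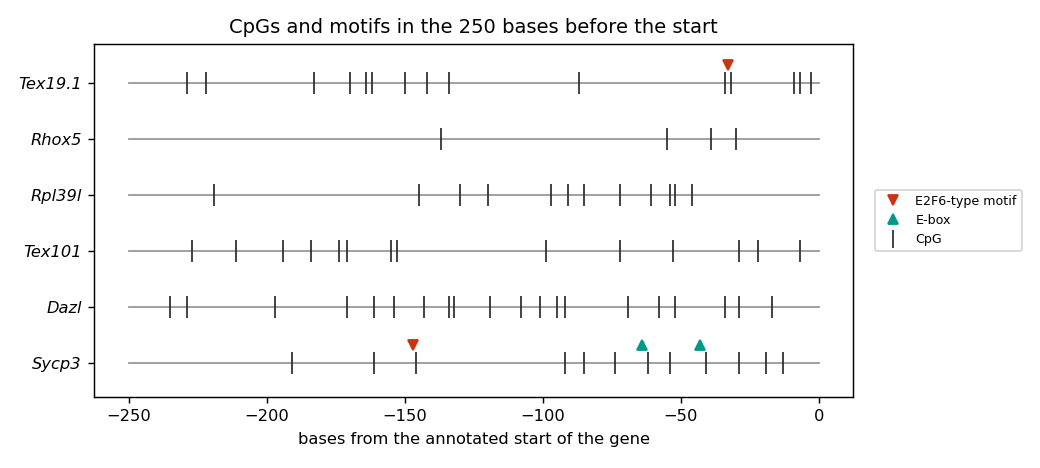
Positions of CpGs (black ticks), TCCCGC (red, labelled E2F6-type motif) and CACGTG (green, labelled E-box) along the 250 bases before the annotated start of each measured gene with a promoter entry; the x axis is in bases from the start. Dazl has 20 ticks and Rhox5 4, and the E-boxes lie in Sycp3.

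The genes next to these members were looked at after their values were seen, as the nearest protein-coding gene with a probe set on either side. Of 16 such neighbours of the 8 measured genes, 6 passed the filter, and 0 were at least 2-fold higher or lower without Dnmt1 at all 3 times, where the shares of all features were 5.11% and 5.99%. Those shares are over features that passed the filter. With 6 such neighbours, a count of 0 is near them, and nothing is read from it. Beside Piwil2, the zinc transporter Slc39a14 had 218.8, 129.4 and 174.9 in p53-null and 92.8, 103.9, 87.8 and 87.7 in p53-Dnmt1-null cells. Polr3d, a subunit of RNA polymerase III on its other side, had 102.3, 103.8 and 113.9 against 171.3, 133.4, 149.6 and 126.4. Beside Rhox5, another homeobox gene of the cluster, Rhox6, stayed between 2.2 and 25.5 on all arrays. Beside Tex101, Lypd3 and Cd177 stayed at or under 12.9 and 12.6 on all arrays, the TSA arrays included.

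Tex101 differed from the other members in that it was high only in p53-Dnmt1-null cells under TSA. The p53-null arrays gave 7.4, 2.8 and 1.8. In p53-Dnmt1-null cells it had 4.1 untreated, 212.8 at 24 h, 253.8 at 48 h and 4.8 after TSA removal. The TSA arrays without Dnmt1 stood apart, and the other 5 arrays were all at or under 7.4. Since Tex101 was noted for this response, its differences with TSA are a description: 3.85 and 4.10 log2 units at 24 and 48 h without Dnmt1, and -0.40 and -0.51 in p53-null cells. With an offset of 45.6 or 1 the mean difference with TSA without Dnmt1 was 2.49 or 5.52 log2 units, beside 3.98 with the offset of 11.4, so its size rests on how dim signals are handled while its direction does not. In the limma fit across all 9390 features 0 passed an adjusted p of 0.05 for TSA in p53-Dnmt1-null cells, and 736 had an unadjusted p under 0.05. The limma adjusted p of Tex101 there was 0.0836. It was under 0.05 in 4 alternatives, at 0.0438 with the offset at 45.6, 0.0357 without the intensity trend, and 0.0120 and 0.0140 without the p53-null 24 h or 48 h array, and it reached 0.490 without the p53-Dnmt1-null 24 h array. As the gene was picked with this response in view, none of these counts as evidence for it. For the difference of the TSA effect between genotypes 0 passed, with 291 at an unadjusted p under 0.05.

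No difference with TSA passed the test for the other members in either genotype. In p53-Dnmt1-null cells the difference with TSA, averaged over 24 and 48 h, was -0.04 ± 0.37 for Tex19.1, 0.04 ± 0.29 for Rhox5, 0.46 ± 0.36 for Piwil2, 0.45 ± 0.31 for Rpl39l and 0.51 ± 0.41 for Dppa3 (log2, SE), with limma adjusted p from 0.735 to 0.987. In p53-null cells it was -0.20 ± 0.37 for Tex19.1, -0.21 ± 0.29 for Rhox5, -0.09 ± 0.36 for Piwil2, 0.25 ± 0.31 for Rpl39l and 0.25 ± 0.41 for Dppa3, with adjusted p from 0.871 to 0.974. There these genes had signals of 26.7 at most, below the filter, which they passed through p53-Dnmt1-null arrays alone. The SE draws on the arrays of both genotypes. A small response to TSA in p53-null cells thus cannot be told from none. On the p53-null TSA arrays Tex19.1, Rhox5, Piwil2 and Rpl39l had signals of 22.4 at most. Of the members, Tex101 alone was at least 2-fold higher at both times without Dnmt1, as were 1.87% of all features, and 0.0319% were at least 8-fold higher. No member was at least 2-fold lower at both times there, against 0.341% of features. In p53-null cells 0 members were at least 2-fold higher at both times, against 1.54% of features. A 2-fold fall there could not be seen for Tex19.1, Piwil2, Rpl39l and Tex101. Their untreated signals of 9.3, 6.9, 1.4 and 7.4 lay below the offset, so even complete loss of signal would be less than 2-fold. Rhox5 and Dppa3, at 26.7 and 17.1 untreated, could fall that far and did not at both times. The count of 0 lower is thus not set against the 1.00% of features that were lower. The limma test in p53-null cells called 0 features, with 799 at an unadjusted p under 0.05.

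**Figure D3:**
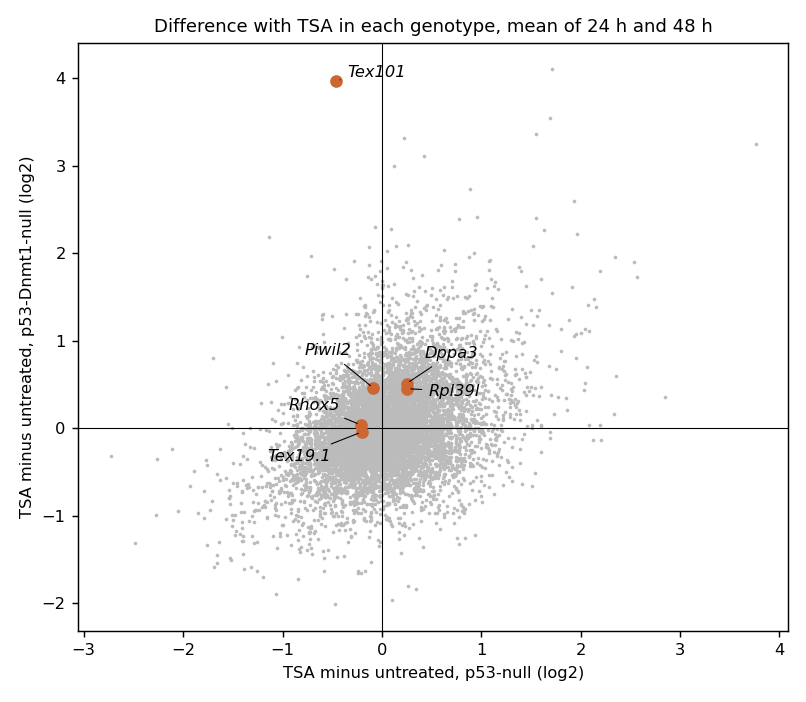
Difference with TSA (mean of 24 and 48 h minus untreated, log2 of signal + 11.4) in p53-null cells on the x axis and p53-Dnmt1-null cells on the y axis, for all 9390 features (grey) and the 6 germline genes that passed the filter (orange). Tex101 lies at -0.46 and 3.98, and the others lie between -0.21 and 0.25 on the x axis and between -0.04 and 0.51 on the y axis.

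On the after-removal array the germline genes parted, by size alone, into those near their untreated level and those below it. The labels name no untreated p53-Dnmt1-null array kept 2 weeks longer and no p53-null array after removal. Effects of earlier TSA and of time in culture thus cannot be told apart. Piwil2 and Rpl39l differed from untreated p53-Dnmt1-null cells by -0.12 ± 0.42 and 0.16 ± 0.36 log2 units (SE, limma adjusted p = 0.907 and 0.843). Tex19.1 was lower by size, with -2.23 ± 0.42 and a limma adjusted p of 0.136, and Rhox5 with -1.05 ± 0.33 and 0.198, neither under 0.05. Over all features limma called 0.0106% higher and 0% lower in this comparison. In signal, Tex19.1 stood at 0.202 and Rhox5 at 0.475 of the untreated value. Both still stood above untreated p53-null cells, by 2.99 and 3.01 log2 units, beside 2.94 for Piwil2 and 7.01 for Rpl39l.

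A reading at least 2-fold lower than untreated was common on the after-removal array, at 9.68% of all features, with 4.66% at least 2-fold higher. Among the 480 features at least 2-fold higher without Dnmt1 at all 3 times, 18.8% were at least 2-fold lower after removal and 75.8% were still at least 2-fold above untreated p53-null cells. Of the 4 germline genes in that set, 2 were lower, Tex19.1 and Rhox5, and Rhox5 lay just past 2-fold. The median over all features was -0.13 in this comparison, and with the array medians equalised Rhox5 no longer reached 2-fold. These genes were chosen for high signals on the p53-Dnmt1-null arrays that form the other side of this comparison and the next, so it is not independent of their choice.

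Against the TSA arrays of the same genotype, the after-removal array gave -2.19 ± 0.37 for Tex19.1 (limma adjusted p = 0.0210), -1.09 ± 0.29 for Rhox5 (0.0488), -0.58 ± 0.36 for Piwil2 (0.288), -0.29 ± 0.31 for Rpl39l (0.537) and -0.95 ± 0.41 for Dppa3 (0.148). Tex101, whose TSA arrays were part of its choice, differed by -3.91 log2 units and by 0.06 from the untreated array, so that it was back at its untreated level. In this comparison 7.52% of features were called lower and 4.21% higher, and 10.1% were at least 2-fold lower and 5.25% at least 2-fold higher than both TSA arrays. Without the p53-Dnmt1-null 24 h array the calls over all features went from 1101 to 23, and Tex19.1 and Rhox5 had limma adjusted p of 0.0691 and 0.0884. The limma adjusted p of Rhox5 also missed 0.05 with any other of the 4 TSA arrays left out. Over all alternatives the adjusted p ranged from 0.0137 to 0.0722 for Tex19.1 and from 0.0420 to 0.0968 for Rhox5.

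**Figure D4:**
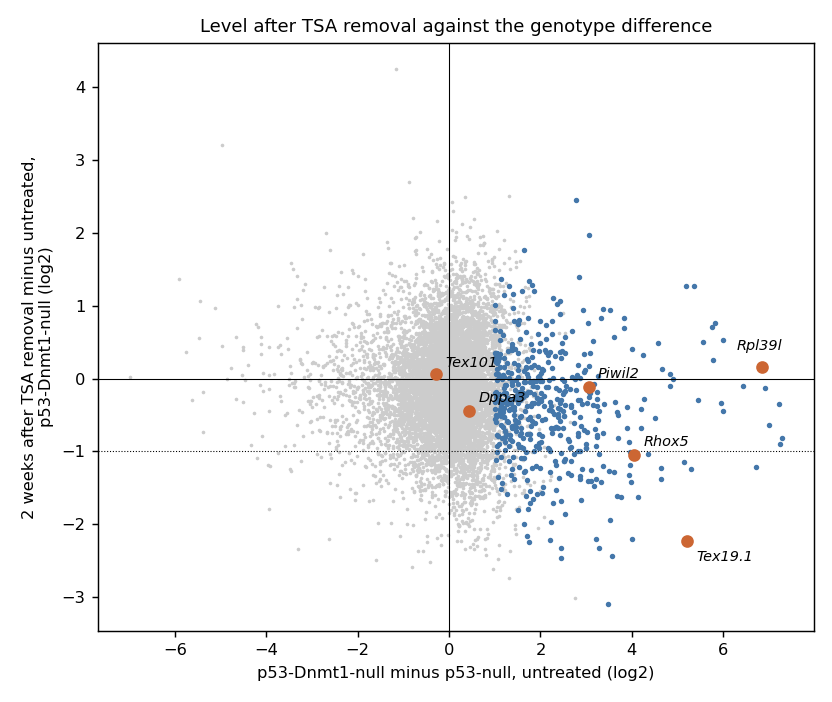
Difference between the after-removal and untreated p53-Dnmt1-null arrays (y axis, log2) against the difference between untreated genotypes (x axis, log2) for all features (grey), the 480 features at least 2-fold higher without Dnmt1 at all 3 times (blue) and the 6 germline genes that passed the filter (orange). The dotted line marks 2-fold lower, past which Tex19.1 at -2.23 and Rhox5 at -1.05 lie.

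Other germline genes, from lists drawn up by role, were mostly dim on every array. Of 86 such genes with a probe set, 73 did not pass 45.6 on any array. Among them were all 12 listed germ cell and pluripotency factors. So were all 9 genes of a list of Rhox5 relatives and other X-linked genes, which does not hold the X-linked Taf7l. Of the 13 that passed, 5 were at least 2-fold higher without Dnmt1 at all 3 times and 0 were lower, where 5.11% and 5.99% of all features were. Of the 5, 4 passed the filter through p53-Dnmt1-null arrays alone, which favours such a difference, so the count supports nothing. It was 1 with the offset at 45.6 and 2 with the filter at the 75th percentile of signals. Asz1, a piRNA pathway protein, had 29.2, 25.5 and 30.3 in p53-null cells against 296.0, 163.3 and 304.6, with 576.9 after removal. Its other probe set gave 10, 15 and 5.1 against 396.0, 245.1, 370.2 and 441.4, so both showed the gene high without Dnmt1, after removal too.

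The other 4 belonged to the meiosis list. Taf7l, an X-linked transcription factor of germ cells, had 1.4, 6.0 and 5.8 against 55.9, 53.7 and 61.6, with 14.8 after removal. It was the one of these 5 genes that read at least 2-fold lower after removal than untreated, at -1.36 log2 units. Of the 480 features at least 2-fold higher without Dnmt1 at all 3 times, 18.8% did so. The rest of the 5 genes differed from untreated by 0.94 (Asz1), 0.73 (Tex14), 0.07 (Syce2) and -0.18 (Stag3) log2 units. Tex14, needed for the bridges between germ cells, had 11, 13.1 and 15.6 against 85.7, 45.9, 118.8 and, after removal, 150.1. Stag3, a meiotic cohesin, had 9.4, 31.2 and 30.7 against 58.5, 155.4, 109.9 and 50.1, and was at least 2-fold higher with TSA at both times in p53-null cells. Syce2, of the synaptonemal complex, had 93.5, 103.1 and 81.7 against 331.5, 245.8, 206.4 and 348.0, and was thus measured in both genotypes. Of the testis and sperm list 4 of 27 passed the filter, and of the oocyte list 1 of 11, with 0 called between genotypes in either.

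By role, the median genotype difference of the 6 meiosis genes that passed was 1.74 log2 units, against 0.03 for all named genes. With TSA in p53-Dnmt1-null cells it was -0.30, against -0.01. The filter favours genes that are high on some array, so these medians are descriptions. The 2 further piRNA genes that passed went opposite ways: beside Asz1, Tdrd7, a tudor protein, had 127.7, 150.1 and 174.9 in p53-null cells against 54.9, 139, 92.1 and 54.8. Psmc3ip, which aids meiotic recombination and also acts in dividing cells, had 99.3, 40.2 and 41.9 in p53-null cells. It was the one listed germline gene at least 2-fold lower with TSA there, as were 1.00% of all features. In p53-Dnmt1-null cells it had 150, 63.5 and 76.7. The differences with TSA were alike, at -1.10 and -1.05 log2 units in p53-null and -1.11 and -0.87 in p53-Dnmt1-null cells.

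Repressors known to act on germline genes had 23 listed members on the array, and 21 of them passed the filter. Dnmt1 had 695.6, 384.4 and 308.2 in p53-null cells against 206.5, 74.0, 109.5 and 123.2, and was the one repressor at least 2-fold lower without Dnmt1 at all 3 times. Its remaining signal was below every p53-null value, and the labels do not say which exons were deleted or probed. Uhrf1, which brings Dnmt1 to replicated DNA, was the one that was higher, with 290.6, 84.1 and 44.1 against 600.1, 266.8 and 349.6, and 705.6 after removal. Of all features 5.99% were lower and 5.11% higher by the same rule. The counts of 1 of 21 each way are near those shares, and nothing is read from them. The silencing cofactor Trim28 had 1380.2, 911.7 and 969.2 against 1395.5, 809.9, 1121.4 and 889.4, and the histone methyltransferase Ehmt2 796.1, 796.8 and 679.9 against 876.6, 680.3, 739.9 and 614.1. For both, the ranges of the genotypes overlapped. The same held for Tfdp1, the partner of E2F factors, at 308.3 to 712.0 against 508.4 to 1018.0, and for Hdac1, a target of TSA, at 605.4 to 767.1 against 508.5 to 688.6.

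The named genes most like each member over the 7 arrays were sought among features spanning at least 2 log2 units. For Rpl39l the closest were Wt1, Krt14 and Krt18, with Pearson's r of 0.998, 0.996 and 0.996. For Tex19.1 they were Lgals7, Tnni1 and Folr1 (0.996, 0.996 and 0.991), for Rhox5 Map3k11, Edn1 and Smpd3 (0.999, 0.996 and 0.996), and for Piwil2 Pard6b, Wwc1 and Saa3 (0.996 for each after rounding). Between 99 and 133 genes had r above 0.95 with each of these 4 members, so the genes named are not particular to them. For the dim Dppa3 the closest were Mapk8ip1, Tmem37 and Actn3 (0.967, 0.964 and 0.957), with 5 genes above 0.95. Tex101 had 1 such gene, Crlf2, a cytokine receptor, at r = 0.954. Crlf2 had 169.6, 137.2 and 211.2 on the p53-null arrays and 232.1, 867.7, 646.6 and 207.0 on the others, so it was well measured without TSA, unlike Tex101. The 7 points share their libraries, and r is a description.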

How the data were processed

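Total RNA (TriZol, standard Affymetrix labelling, per the labels' protocols) was measured on 7 arrays, 1 per group. The deposited values are linear signal intensities of 22690 probe sets, which the authors made with MAS5, per the submitters' processing notes. Its version and scaling target are not stated there. The deposited intensities had a 2% trimmed mean of 150.0 on every array and were used as they stand.

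A platform annotation named 20393 probe sets with 1 gene symbol, listed 691 with several and left out 1606. Entrez identifiers brought 20364 of the symbols up to date through RefSeq. The probe set of highest mean stood for its gene, and 64 control probe sets were dropped. Signals were analysed as log2(signal + 11.4), the offset being the pooled 25th percentile, and 9390 features passed the filter. The tests were limma's (version 3.58.1, R 4.3.3), moderated with an intensity trend, with p-values adjusted over all 9390 features after Benjamini-Hochberg. The model pooled 24 h and 48 h of TSA within a genotype, which left 2 residual degrees of freedom beside a prior of 5.75. A change between these times therefore counts as error, and single arrays borrow the variance of the pairs. Such p-values hold no spread between cultures and may reflect technical spread only. The fit was run on simulated data with independent noise and large known changes with TSA in p53-Dnmt1-null cells only. That run does not cover small differences or the after-removal comparisons.

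The members, lists and rules were chosen with earlier results of these data known. Named genes were the members, then up to 4 genes per list and comparison past 2-fold at every time compared, the 4 brightest repressors with Dnmt1, and the 3 genes most like each member. The cell type lists not reported elsewhere are given under other observations. Gene positions and promoter sequences came from RefSeq on GRCm38.p6. The number of arrays limits the precision.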

Additional observations from a re-analysis of the deposited data

Results flagged for a closer look

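With TSA, Tex101 was lower than untreated on both p53-null arrays and higher on both p53-Dnmt1-null arrays, so that the arrays of each genotype moved opposite ways. The TSA difference in p53-Dnmt1-null cells minus that in p53-null cells was 4.43 log2 units. Tex101 was picked with this response in view, so the difference is a description, and its p53-null signals of 7.4, 2.8 and 1.8 are all below the filter. One probe set of Dazl met the same condition with a difference of 0.36 log2 units. Its signals were at or under 5.0 on the 6 arrays compared, below the filter, and the difference was not tested.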

How the results depend on the processing

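The count of 4 members at least 2-fold higher without Dnmt1 at all 3 times was the same under every alternative run for it: offsets of 45.6 and 1, equalised medians, quantile normalization, no filter or one at the 75th percentile, every probe set kept, either TSA pair left out, and a 4-fold threshold. The count of other germline genes, 5, was 1 with the offset at 45.6 or a 4-fold threshold and 2 with the filter at the 75th percentile, and the count of members lower after TSA removal, 2, was 1 with that offset, with equalised medians or at 4-fold; both counts were added after seeing the data. Features called for TSA numbered 0 in each genotype. In p53-Dnmt1-null cells this became 1 with the offset at 45.6 or without the intensity trend, and 0 to 5 with 1 TSA array left out, and in p53-null cells 0 to 1 with 1 left out. For after removal against untreated, 1 call became 0 with quantile normalization, no filter or no trend, 2 with every probe set kept and 0 to 1 with 1 array left out. For after removal against TSA, 1101 calls became 0 with no filter, 1976 with every probe set kept and 23 to 1430 with 1 TSA array left out. The cause of these changes was not tested. Of the tested single-gene values, 336 kept their side of the threshold, 15 lost an adjusted p under 0.05 and 4, all of Tex101 with TSA in p53-Dnmt1-null cells, gained one. The 123 genotype differences, which were not tested, kept their side of 2-fold. No paired analysis was possible because each group holds 1 array and the labels give no replicate numbers; the genotypes were set side by side at matched times as a description, with no test, since the members were chosen on that difference. With no detection calls, levels under the array median limit what can be said of dim genes.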

Other observations

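Of 21 repressors of germline genes that passed the filter, 2 were at least 2-fold higher and 1 at least 2-fold lower after removal than untreated, where 4.66% and 9.68% of all features were. Hells, a remodeller needed for DNA methylation, had a signal of 497.8 there against 221.4 untreated, and Mga, part of a complex that represses germline genes, 245.0 against 54.9. The other probe set of Mga gave 33.2 against 36.9, so the probe sets of Mga disagree. Cbx3, a heterochromatin protein, had 13.9 against 45.4. In p53-null cells the methyltransferase Dnmt3b had dim signals of 29.8, 4.8 and 1.6 untreated and at 24 h and 48 h of TSA.

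Hspa2, a chaperone of spermatocytes, and Gdf9, an oocyte growth factor, were 2-fold or more lower after removal than untreated, at 44.3 against 109.7 and 6.2 against 27.2, and Gdf9 was dim on both. Summed signals of the remaining cell type lists were 44.3 to 49.0 in p53-null and 35.1 to 76.3 in p53-Dnmt1-null arrays for Leydig cell markers, and 75.4 to 96.9 and 57.4 to 105.1 for trophoblast markers. Macrophage markers summed to 158.4 to 192.1 and 202.8 to 388.0, and endothelial markers to 71.4 to 85.8 and 25.5 to 99.1. Pluripotency markers summed to 113.8 to 154.7 and 68.3 to 132.8.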
